A study of Mus musculus with 8 samples.

Results

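The circadian clock genes examined here were *Arntl*, *Clock*, *Per1*, *Per2*, *Per3*, *Cry1*, *Cry2*, *Nr1d1*, *Nr1d2* and *Dbp*. They were taken by gene symbol and are 10 of the 48321 gene symbols in the count tables. The 8 RNA-seq libraries came from natural killer (NK) cells sorted as CD45+ TCRb- NK1.1+ from the lung or spleen of C57/Bl6 mice, with 2 libraries in each of 4 groups. Wild-type (*Wt*) mice were compared with mice labelled KO, which are homozygous for a germline deletion of the *Ccl5* proximal enhancer (*Ccl5* ΔPE/ΔPE), made by genome editing. The mice were young adults of both sexes, the lines were bred and housed separately, no mouse was treated, and pooling of animals is not described. The hour at which organs were taken is not given in the sources used here, so the hour of collection, the separate housing and the genotype cannot be told apart.

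The clock is a feedback loop of transcription factors. CLOCK and ARNTL (also called BMAL1) form a dimer that binds E-box sequences and activates the *Per* and *Cry* genes, *Nr1d1*, *Nr1d2* and *Dbp*. PER and CRY proteins then inhibit that dimer, while NR1D1 and NR1D2 (the REV-ERBs) repress *Arntl*, and DBP activates genes through D-box sequences. In rhythmic tissues *Arntl* RNA is therefore high when *Nr1d1* and *Dbp* RNA are low, and these genes are commonly used to tell at which phase of the day a tissue was taken.

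Between 3132963 and 26482366 reads were assigned to genes per library, and levels are given as CPM, a gene's reads scaled to a common library size by the TMM method. *Ccl5*, the gene next to the deleted enhancer, was at 18314 to 19480 CPM in *Wt* lung, 2987 to 3189 in KO lung, 15633 to 16647 in *Wt* spleen and 2428 to 2671 in KO spleen. The 8 NK-cell markers summed to between 28310 and 39151 CPM in every library. The 6 T-cell markers summed to 67.3 to 68.5 CPM in *Wt* lung, 48.4 to 51.1 in KO lung and 158 to 177 in spleen. The 4 B-cell markers summed to 1.29 to 3.27 CPM in lung and 14.0 to 22.2 in spleen, and the 7 myeloid markers to 320 to 479, with *Adgre1*, *S100a8* and *S100a9* at 0 in every group. Most of the myeloid sum was *Itgam*, with group means of 301 to 430 CPM. It encodes CD11b, which the paper stained to judge the maturation of NK cells. The 10 markers of lung epithelium, endothelium and stroma summed to 311 to 319 CPM in *Wt* lung, 414 to 451 in KO lung and 65.6 to 75.6 in spleen, with 7 of them at 0 in *Wt* spleen and 8 in KO spleen. In spleen nearly all of this sum was *Pecam1*, with group means of 69.8 CPM in *Wt* and 67.5 in KO. The 4 platelet and erythroid markers summed to 42.7 to 52.0 CPM in lung and 1.25 to 2.87 in spleen, and *Gata3* and *Il7r*, of other innate lymphoid cells, to 397 to 496. From *Wt* to KO lung the group means of *Ppbp* (20.6 to 5.40 CPM) and *Pf4* (8.42 to 0.884) fell. Those of *Hba-a1* (6.28 to 9.92) and *Hbb-bs* (14.8 to 30.1) rose. *Gata3*, with group means of 327 to 410 CPM, made most of its sum with *Il7r*. The part of these other cells in the values below was not tested, and in bulk RNA fewer cells expressing a gene and less RNA per cell cannot be told apart.

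*Per1* and *Nr1d1* lie on chromosome 11, which also carries *Ccl5*, *Arntl* and *Dbp* on chromosome 7, and the other genes on chromosomes 5 (*Clock*), 1 (*Per2*), 4 (*Per3*), 10 (*Cry1*), 2 (*Cry2*) and 14 (*Nr1d2*). Promoter windows of 9 of the 10 genes were read from RefSeq on GRCm38.p6, the build to which the reads were aligned, with *Per2* not matched. Each window runs from 250 bases before to 50 bases after a transcription start, and the 9 genes had 13 windows. They were searched on both strands for the E-box CACGTG, the variant E-box CACGTT, the D-box as TTATGTAA or TTACGTAA, the core AGGTCA of the element bound by REV-ERBs, and the cAMP response element TGACGTCA. Of all 32851 windows, 7.15% held the E-box, 4.68% the variant E-box, 1.06% the D-box, 16.3% the AGGTCA core and 1.79% the cAMP response element. Among the clock genes the E-box was found in 2 genes (*Per1*, *Cry1*), the variant E-box in 3 (*Cry1*, *Cry2*, *Nr1d1*), the D-box in 1 (*Per3*) and the AGGTCA core in 4 (*Arntl*, *Clock*, *Per1*, *Nr1d2*), while the cAMP response element was in none of these windows. No occurrence overlapped another. The 250 bases before the start are printed for *Per1* and *Nr1d1*, whose levels were higher in KO lung than in *Wt* lung, and for *Cry1* and *Per3*, whose levels were lower, so that the motifs of both sets can be compared. They lie upstream of the RefSeq start, on the plus strand at chr11:69098699-69098948 (*Per1*) and on the minus strand at chr11:98775378-98775627 (*Nr1d1*), chr10:85185055-85185304 (*Cry1*) and chr4:151044666-151044915 (*Per3*). Each is written 5′ to 3′ on the strand of the gene, and capitals mark the motifs, read on either strand.
*Per1*: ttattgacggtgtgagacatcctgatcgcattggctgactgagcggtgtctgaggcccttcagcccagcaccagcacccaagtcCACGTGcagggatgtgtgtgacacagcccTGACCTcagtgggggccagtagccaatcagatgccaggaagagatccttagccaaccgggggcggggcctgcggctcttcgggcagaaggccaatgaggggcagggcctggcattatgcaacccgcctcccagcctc
*Nr1d1*: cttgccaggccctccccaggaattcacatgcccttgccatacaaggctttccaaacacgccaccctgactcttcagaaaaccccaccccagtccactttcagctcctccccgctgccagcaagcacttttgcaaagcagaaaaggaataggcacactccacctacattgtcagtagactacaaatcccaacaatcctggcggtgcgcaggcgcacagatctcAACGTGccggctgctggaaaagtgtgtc
*Cry1*: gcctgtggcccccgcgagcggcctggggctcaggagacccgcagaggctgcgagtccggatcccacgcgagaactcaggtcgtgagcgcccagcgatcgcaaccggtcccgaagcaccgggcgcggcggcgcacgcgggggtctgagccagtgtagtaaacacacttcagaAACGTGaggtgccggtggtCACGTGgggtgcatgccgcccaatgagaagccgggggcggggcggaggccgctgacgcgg
*Per3*: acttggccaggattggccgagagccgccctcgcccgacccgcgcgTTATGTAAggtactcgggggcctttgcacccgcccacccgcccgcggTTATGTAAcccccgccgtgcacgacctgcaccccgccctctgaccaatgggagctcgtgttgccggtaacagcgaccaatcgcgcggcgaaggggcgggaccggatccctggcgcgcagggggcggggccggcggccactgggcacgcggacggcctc
The *Per1* window held an E-box that began 166 bases before the start and an AGGTCA core on the other strand, 137 bases before it. *Cry1* held an E-box at 60 bases and a variant E-box at 79 bases before its start, *Nr1d1* a variant E-box at 28 bases, and *Per3* a pair of D-boxes at 205 and 158 bases. These are matches of letters and no binding was measured.

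*Nr1d2*, the second REV-ERB, was the most abundant clock gene per length of its exons in all 4 groups, at 9.34 ± 0.0936 CPM per kb (SD, n = 2) in *Wt* lung, 9.40 ± 0.309 in KO lung, 10.4 ± 0.156 in *Wt* spleen and 10.2 ± 0.258 in KO spleen. *Cry1*, an inhibitor of the loop, followed in *Wt* lung at 6.53 ± 0.511 and in KO lung at 4.38 ± 0.211 CPM per kb, ahead of *Arntl* at 3.55 ± 0.186 and 2.49 ± 0.0819. In KO spleen this order was turned, with *Arntl* at 4.87 ± 0.151 and *Cry1* at 1.81 ± 0.211 CPM per kb, and in *Wt* spleen the levels of *Arntl* (4.78 ± 0.058) and *Cry1* (4.39 ± 0.303) were near each other. *Clock* and *Dbp* lay between 1.19 and 2.70 CPM per kb in the 4 groups. *Per3* and *Cry2* lay between 0.385 and 1.08, *Per1* and *Per2* between 0.148 and 0.899, and *Nr1d1* between 0 and 0.665. In *Wt* lung, *Per3* (1.08 ± 0.0686) and *Cry2* (0.965 ± 0.198) differed by less than the sum of their SDs, as did *Per1* (0.372 ± 0.0585) and *Per2* (0.225 ± 0.131).

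**Figure D1:**
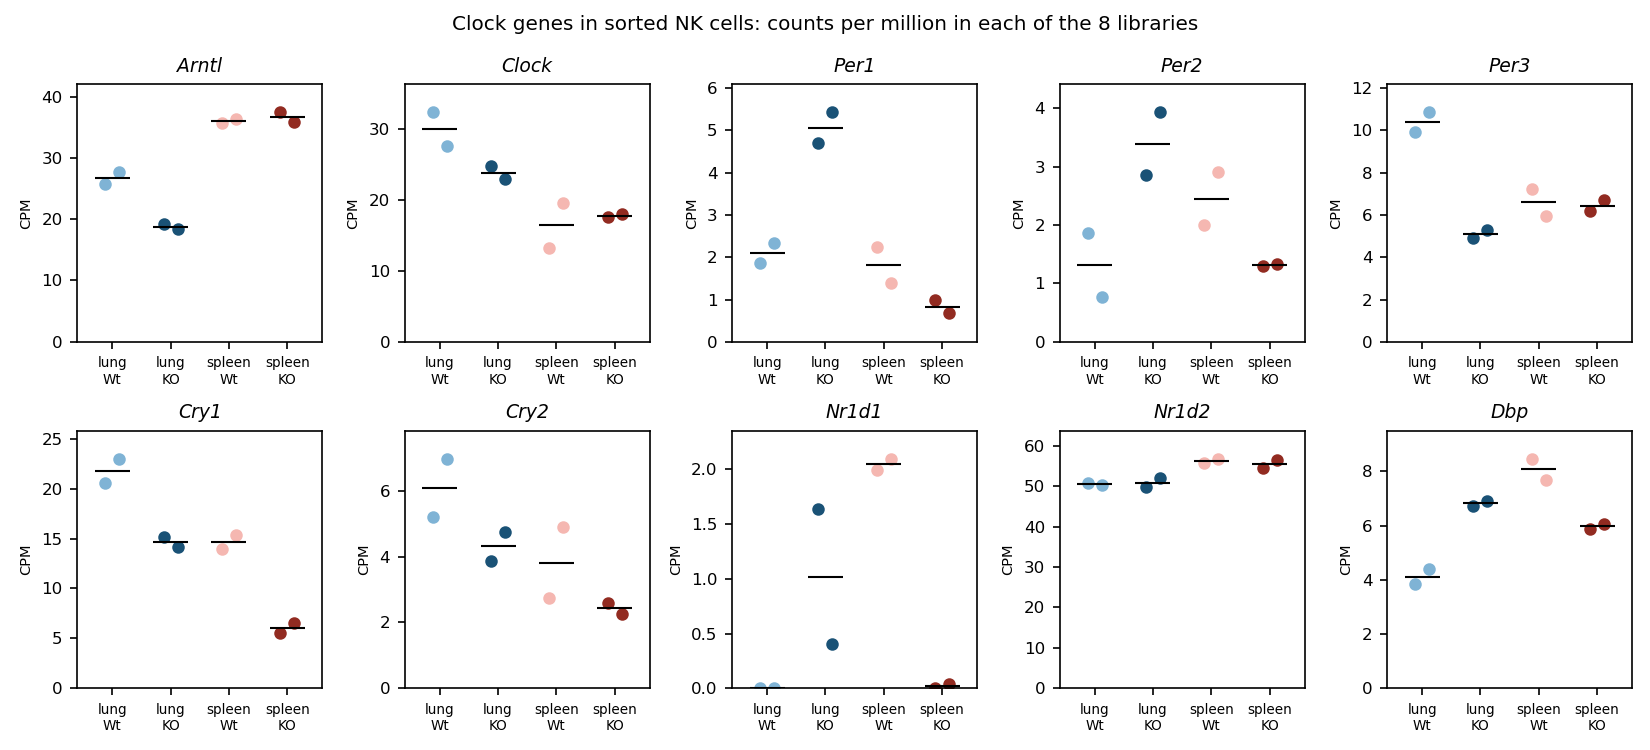
Levels in CPM (TMM-scaled, linear axes from 0) of the 10 clock genes in each library of NK cells from lung or spleen of *Wt* and KO mice. Points are libraries and lines are group means (n = 2). *Nr1d1* was at 0 in both *Wt* lung libraries, and *Nr1d2* lay between 49.6 and 56.8 CPM in all 8.

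The first comparison asked which clock genes differed between KO and *Wt* NK cells of the lung. In KO lung the activators *Arntl* and *Clock* and the repressors *Cry1* and *Per3* were lower, whereas *Per1*, *Per2*, *Nr1d1* and *Dbp* were higher. Thus 8 of the 10 genes passed the test, 4 higher and 4 lower, while *Cry2* and *Nr1d2* did not. Of all 12595 genes tested 55.6% passed, 29.2% as higher and 26.4% as lower, so most genes were called in these libraries. Under scaling to library totals the share of called genes that were higher was 63.3% in place of 52.5%. The median log2 fold change was -0.18 over the 10 genes (with *Nr1d1* at its bound as well) and 0.02 over all genes, and the median size of the change was 0.66 and 0.36. *Per1*, *Per2* and *Nr1d1* fell below the minimum of the count filter (1.67 CPM) in 3 to 5 libraries and were kept through the groups in which they were high, so their calls add no support, and of the 7 genes above it in every library 5 were called. The medians over the 10 genes include *Per1*, *Per2* and *Nr1d1* and add no support either. DESeq2 lost the calls of *Clock*, *Per1*, *Per2* and *Dbp*. A likelihood ratio test at an assumed biological coefficient of variation (BCV) of 0.2 lost those of *Arntl*, *Clock*, *Per2*, *Cry1* and *Dbp*. The count of 8 became 4 without *Wt* lung replicate 1 (40.5% of all genes called), 5 without KO lung replicate 2 (44.1%) and 4 with DESeq2 (35.8%).

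*Arntl*, the partner of CLOCK, was at 25.7 and 27.7 CPM in *Wt* lung and at 19.2 and 18.3 CPM in KO lung. Both KO libraries lay below both *Wt* libraries, with a log2 fold change of -0.50 ± 0.12 (SE, adjusted p = 0.000749). *Clock* was at 32.4 and 27.7 CPM in *Wt* lung and at 24.7 and 22.9 in KO lung. The groups did not overlap and the log2 fold change was -0.38 ± 0.12 (adjusted p = 0.0100), but this call was lost without *Wt* lung replicate 1 (-0.23, adjusted p = 0.287), without KO lung replicate 2 (-0.31, adjusted p = 0.117) and with an offset for GC content (-0.17, adjusted p = 0.232). *Clock* and *Nr1d2* had the lowest GC content of the 10 genes, at 40.9% and 41.8%.

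*Per1*, the member of its family that also responds within minutes to outside signals, had 15 and 9 reads in *Wt* lung and 23 and 40 in KO lung, or 1.86 and 2.33 against 4.70 and 5.43 CPM. The lowest KO library was above the highest *Wt* library, and the log2 fold change was 1.34 ± 0.33 (adjusted p = 0.000624), or 1.13 (adjusted p = 0.0601) without *Wt* lung replicate 1. *Per2* had 15 and 3 reads in *Wt* lung and 14 and 29 in KO lung, or 1.86 and 0.776 against 2.86 and 3.94 CPM. The groups did not overlap and the log2 fold change was 1.21 ± 0.39 (adjusted p = 0.00869), but it missed the threshold without *Wt* lung replicate 2 (0.90, adjusted p = 0.0731) and without KO lung replicate 2 (0.92, adjusted p = 0.185). *Per3*, the third *Per* gene, moved the other way. It was at 9.93 and 10.9 CPM in *Wt* lung and at 4.90 and 5.30 CPM in KO lung, a log2 fold change of -0.99 ± 0.22 (adjusted p = 0.000163). This value passed the threshold in all 18 alternative settings that were run.

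*Cry1* was at 20.6 and 23.0 CPM in *Wt* lung and at 15.1 and 14.1 CPM in KO lung. The groups did not overlap and the log2 fold change was -0.56 ± 0.14 (adjusted p = 0.000939). *Cry2*, its paralogue, was at 5.21 and 6.98 CPM in *Wt* lung and at 3.88 and 4.75 in KO lung. Its log2 fold change was -0.40 (95% interval -0.96 to 0.15) and did not pass the test (adjusted p = 0.217). An antisense non-coding gene, *D930015M05Rik*, shares 295 bases (4.7%) of the exons of *Cry2*.

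Of the REV-ERB genes, *Nr1d1* had 0 reads in both *Wt* lung libraries, which allows up to 0.372 and 0.776 CPM, and 8 and 3 reads in KO lung (1.63 and 0.407 CPM). Over the group, the level from 11 reads in KO lung was 3.57-fold that of the 3 reads that a count of 0 in *Wt* lung allows, and with the counting error of both groups it was at least 2.44-fold higher (95% limit). KO lung replicate 2, at 0.407 CPM, lay under the 0.776 CPM that *Wt* lung replicate 2 allows. *Nr1d1* was called (adjusted p = 0.00204), but not without *Wt* lung replicate 1 (adjusted p = 0.0756) or KO lung replicate 1 (adjusted p = 0.0851). *Nr1d2* was at 50.9 and 50.2 CPM in *Wt* lung and at 49.6 and 52.0 CPM in KO lung. Its groups overlapped, with a log2 fold change of 0.01 (95% interval -0.16 to 0.18, adjusted p = 0.922).

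*Dbp*, the D-box activator, was at 3.85 and 4.40 CPM in *Wt* lung and at 6.74 and 6.93 CPM in KO lung. The groups did not overlap and the log2 fold change was 0.76 ± 0.25 (adjusted p = 0.00872). *Dbp* had the highest GC content of the 10 genes (61.6%), and with the GC offset its log2 fold change was 0.37 (adjusted p = 0.214). The call was also lost without *Wt* lung replicate 1 (0.63, adjusted p = 0.159) and without KO lung replicate 2 (0.74, adjusted p = 0.0616). *Dbp* shares 539 bases, 18.0% of its exons, with *Sphk2* on the opposite strand. The strand setting of the counting is not given in the sources used here, so whether reads of both genes were kept apart is not known. The part of *Sphk2* reads in the *Dbp* counts was not tested. *Sphk2* was at 3.35 and 4.40 CPM in *Wt* lung, 15.3 and 10.9 in KO lung, 5.73 and 8.16 in *Wt* spleen and 5.54 and 4.43 in KO spleen. *Nr1d1* likewise shares 263 bases (8.5%) with *Thra*, which lay between 1.05 and 2.66 CPM in all libraries.

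The second comparison was the same one in spleen. Of the 10 genes 5 were lower in KO spleen than in *Wt* spleen, namely *Per1*, *Per2*, *Cry1*, *Cry2* and *Nr1d1*, and 0 were higher. Over all genes 57.1% were called, 28.2% higher and 28.9% lower. The median log2 fold change was -0.63 over the 10 genes and 0 over all genes. The former includes *Per1*, *Per2* and *Nr1d1*, kept through the groups in which they were high, so it adds no support for a shift of the whole set. *Arntl*, *Clock*, *Per3* and *Nr1d2* lay near 0. Of the 7 genes above the filter minimum in every library 2 were called. DESeq2 and the assumed BCV of 0.2 each lost the calls of *Per1*, *Per2* and *Cry2*. The count of 5 became 2 without *Wt* spleen replicate 2 (40.6% of all genes called), without KO spleen replicate 2 (35.2%) and with DESeq2 (33.1%).

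*Cry1* was at 14.0 and 15.4 CPM in *Wt* spleen and at 5.54 and 6.54 CPM in KO spleen, a log2 fold change of -1.22 ± 0.15 (adjusted p = 1.68e-08), and it passed the threshold in all 18 alternative settings. *Cry2* was at 2.74 and 4.90 CPM in *Wt* spleen and at 2.61 and 2.26 CPM in KO spleen. Both KO libraries lay below both *Wt* libraries (-0.86 ± 0.29, adjusted p = 0.00996), though the call rested on the deeper libraries, at -0.25 (adjusted p = 0.716) without *Wt* spleen replicate 2 and -0.68 (adjusted p = 0.324) without KO spleen replicate 2.

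*Per1* had 9 and 12 reads in *Wt* spleen and 3 and 18 in the KO libraries of unequal depth, or 2.24 and 1.40 against 0.977 and 0.688 CPM. The groups did not overlap and the log2 fold change was -1.20 ± 0.44 (adjusted p = 0.0190). It missed the threshold without *Wt* spleen replicate 1 (-0.95, adjusted p = 0.149), without KO spleen replicate 2 (-0.76, adjusted p = 0.515), with the GC offset (-0.91, adjusted p = 0.0723) and with the replicate block (-1.05, adjusted p = 0.0574). *Per2* was at 1.99 and 2.92 CPM in *Wt* spleen and at 1.30 and 1.34 CPM in KO spleen. Its log2 fold change was -0.96 ± 0.35 (adjusted p = 0.0196), and it was not called without *Wt* spleen replicate 2 (-0.57, adjusted p = 0.488) or KO spleen replicate 2 (-0.99, adjusted p = 0.299).

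*Nr1d1* had 8 and 18 reads in *Wt* spleen (1.99 and 2.1 CPM) and 0 and 1 in KO spleen (0 and 0.0382 CPM). Over the group the level in *Wt* spleen was 60.4-fold that in KO spleen (95% interval 9.92 to 2475, counting error only), with 26 reads against 1. The 0 reads of KO spleen replicate 1 allow up to 0.977 CPM, so this ratio rests mostly on the deeper KO spleen replicate 2. The remaining genes were not called. *Arntl* was at 35.7 and 36.3 CPM in *Wt* spleen and at 37.5 and 35.9 CPM in KO spleen, with a log2 fold change of 0.00 (95% interval -0.17 to 0.18). *Clock* (0.04, -0.23 to 0.30), *Per3* (0.05, -0.34 to 0.45) and *Nr1d2* (-0.01, -0.15 to 0.14) had overlapping groups too, though with the GC offset *Nr1d2* was lower in KO spleen (-0.19, adjusted p = 0.0216). *Dbp* was at 8.48 and 7.70 CPM in *Wt* spleen and at 5.86 and 6.08 CPM in KO spleen. These groups did not overlap, but the log2 fold change of -0.39 (95% interval -0.77 to -0.02) missed the adjusted threshold (adjusted p = 0.0678), and it passed under scaling to library totals (-0.46, adjusted p = 0.0339).

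**Figure D2:**
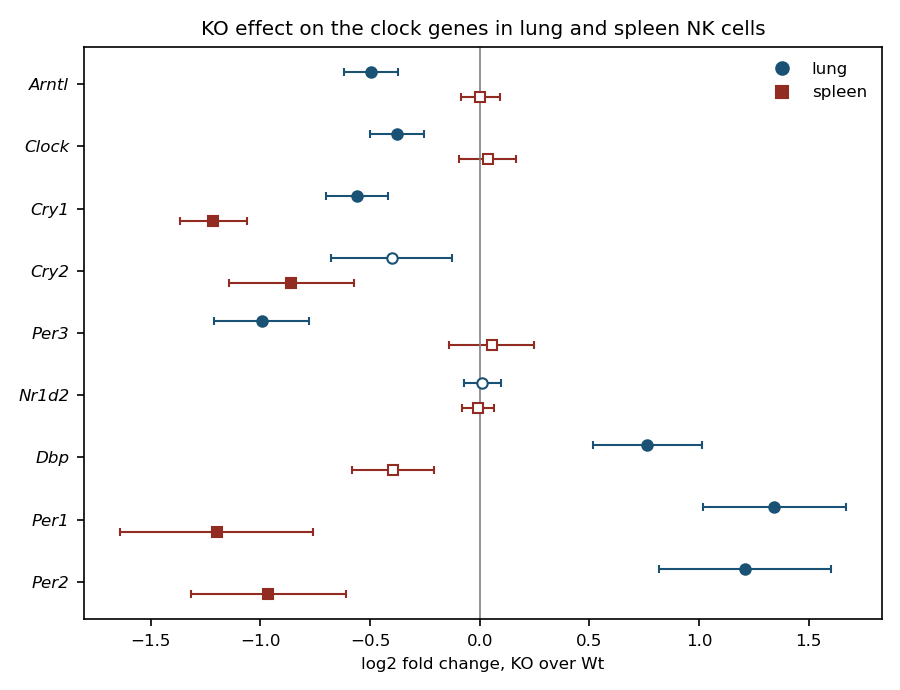
Log2 fold change of KO over *Wt* for 9 clock genes in lung (circles) and spleen (squares) NK cells. Bars are the standard error of the fit, and filled symbols passed the test at an FDR of 0.05. *Nr1d1* is left out because its fitted fold change depends on a prior count. *Per1*, *Per2* and *Dbp* lie right of 0 in lung and left of 0 in spleen, and *Arntl*, *Clock* and *Per3* lie left of 0 in lung and within 0.06 of it in spleen.

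Whether the genotype effect differed between the organs was tested by the difference of both log2 fold changes, lung minus spleen. Of the 10 genes 8 passed, 5 with a higher and 3 with a lower effect in lung, against 61.6% of all genes (32.5% higher and 29% lower). Of the 7 genes above the filter minimum in every library 5 passed, 2 with a higher and 3 with a lower effect in lung, and the calls of *Per1*, *Per2* and *Nr1d1* again add no support. Scaling to library totals turned the higher share of the called genes from 52.9% to 63.4% and moved the median of all genes by 0.16, and 6 of the 10 clock genes then passed. *Per1* differed by 2.54 ± 0.55 (adjusted p = 0.000145) and *Per2* by 2.17 ± 0.53 (adjusted p = 0.000543), each having risen in KO lung and fallen in KO spleen. *Dbp* differed by 1.16 ± 0.31 (adjusted p = 0.00145), or 0.44 (adjusted p = 0.225) with the GC offset. *Nr1d1* also passed (adjusted p = 2.47e-07), and its 4 groups held 0, 11, 26 and 1 reads in the order *Wt* lung, KO lung, *Wt* spleen, KO spleen.

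*Arntl* differed by -0.50 ± 0.15 (adjusted p = 0.00430) and *Per3* by -1.05 ± 0.29 (adjusted p = 0.00197), as both were lower in KO lung and near 0 in spleen. The difference of *Per3* was not called without KO spleen replicate 2 (-0.96, adjusted p = 0.0622). *Cry1* was lower in KO cells of both organs, with a difference of 0.65 ± 0.21 (adjusted p = 0.00650) that missed the threshold without *Wt* lung replicate 1 (0.54, adjusted p = 0.0572) and without *Wt* spleen replicate 2 (0.56, adjusted p = 0.0690). *Clock* differed by -0.41 ± 0.18 (adjusted p = 0.0437) and lost the call with the GC offset (-0.01, adjusted p = 0.992), with the replicate block (-0.32, adjusted p = 0.11), and without *Wt* lung replicate 1 (-0.28, adjusted p = 0.275), KO lung replicate 2 (-0.35, adjusted p = 0.152), *Wt* spleen replicate 1 (-0.24, adjusted p = 0.252) or KO spleen replicate 2 (-0.39, adjusted p = 0.212). *Cry2* (0.46, 95% interval -0.34 to 1.25) and *Nr1d2* (0.02, -0.20 to 0.24) did not pass. With the GC offset *Nr1d2* did, at 0.37 (adjusted p = 0.00359). In DESeq2 the differences of *Arntl* (-0.54, adjusted p = 0.0659), *Per3* (-1.04, adjusted p = 0.0758) and *Cry1* (0.65, adjusted p = 0.133) missed the threshold. So did those of *Dbp* (1.15, adjusted p = 0.0639) and *Clock* (-0.45, adjusted p = 0.235). All of these were also lost at the assumed BCV of 0.2. The 3 genes that passed in both settings were *Per1*, *Per2* and *Nr1d1*, whose calls add no support.

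A ratio of reads within a library does not depend on its scaling or depth. It was formed for 6 genes over *Arntl*, with no test. Per 100 *Arntl* reads, *Dbp* had 15.0 and 15.9 reads in *Wt* lung, 35.1 and 37.8 in KO lung, 23.8 and 21.2 in *Wt* spleen and 15.7 and 17.0 in KO spleen. Both KO lung libraries were thus above all others, and *Wt* lung and KO spleen were close together. *Per1* had 7.25 and 8.41 reads per 100 of *Arntl* in *Wt* lung, 24.5 and 29.6 in KO lung, 6.29 and 3.86 in *Wt* spleen and 2.61 and 1.92 in KO spleen. *Per2* had 7.25 and 2.80, 14.9 and 21.5, 5.59 and 8.04, and 3.48 and 3.73 reads in the same order. For both genes KO lung was again above the other groups and KO spleen was the lowest or among the lowest. *Nr1d1* had 0 in *Wt* lung, 8.51 and 2.22 in KO lung, 5.59 and 5.79 in *Wt* spleen, and 0 and 0.107 in KO spleen. *Nr1d2* had 181 to 198 reads per 100 of *Arntl* in *Wt* lung, 259 to 284 in KO lung and 145 to 157 in the 4 spleen libraries, and *Per3* had 38.6 to 39.3, 25.5 to 28.9 and 16.4 to 20.3. *Arntl* itself was lower in KO lung, so the ratio of a gene with an equal level in both groups is higher there, as for *Nr1d2*, at 50.9 and 50.2 CPM in *Wt* lung and 49.6 and 52.0 in KO lung.

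**Figure D3:**
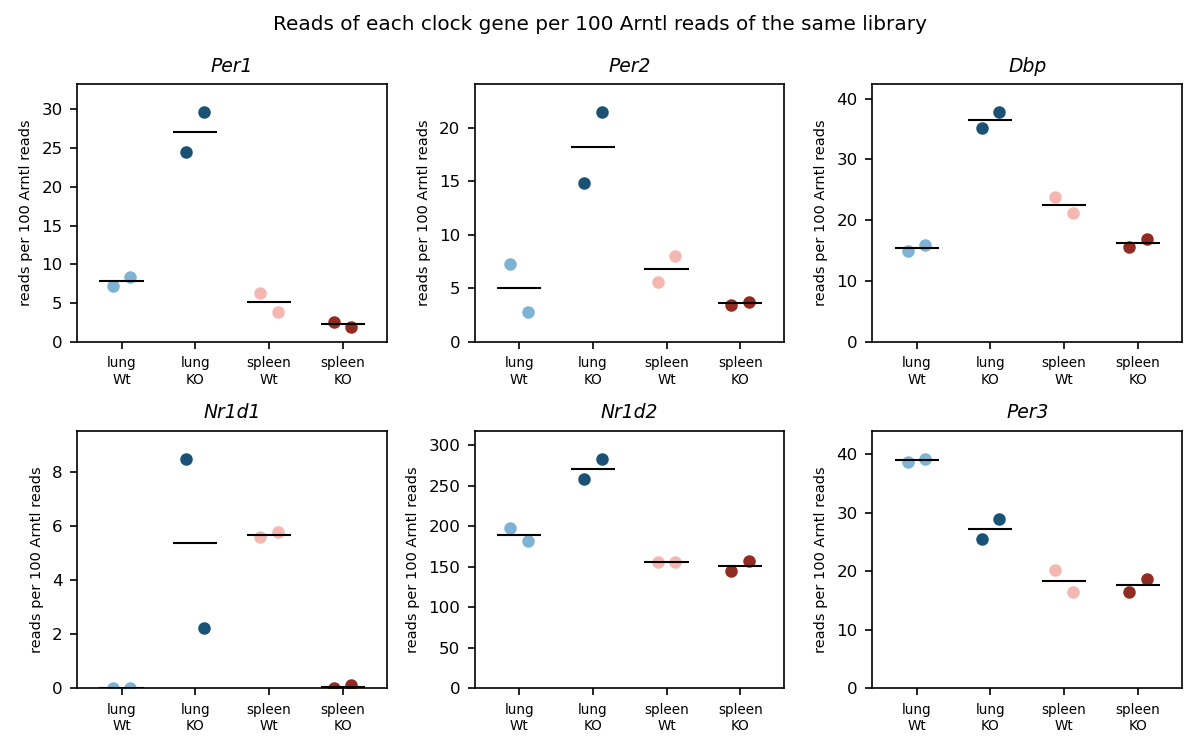
Reads of 6 clock genes per 100 *Arntl* reads of the same library (linear axes from 0) in NK cells of the 4 groups. Points are libraries and lines are group means (n = 2). The ratio of *Dbp* was 35.1 and 37.8 in KO lung and at most 23.8 elsewhere, with *Arntl* itself lower in KO than in *Wt* lung.

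Lung and spleen NK cells were then compared within each genotype. The paper describes enzyme digestion of lungs in its tumor methods, and mashing of both organs for flow cytometry. It does not state which preparation these NK cells had, so an effect of preparation cannot be told apart from one of organ. In *Wt* mice *Clock* (log2 difference 0.82 ± 0.13, adjusted p = 2.13e-06), *Per3* (0.68 ± 0.20, adjusted p = 0.00440) and *Cry1* (0.52 ± 0.14, adjusted p = 0.00161) were higher in lung. *Arntl* (-0.45 ± 0.11, adjusted p = 0.000403), *Dbp* (-0.98 ± 0.24, adjusted p = 0.000622) and *Nr1d1* were lower there, and from 26 reads in *Wt* spleen and 0 in *Wt* lung the level of *Nr1d1* was at least 6.22-fold higher in spleen (95% limit, counting error only). The 6 genes called, 5 of them among the 7 above the filter minimum in every library, compare with 57% of all genes, 27.7% higher and 29.3% lower in lung, and under scaling to library totals the higher share of the called genes was 36.9% in place of 48.6%. *Per3* lost its call without *Wt* spleen replicate 2 (0.50, adjusted p = 0.148), and *Cry2* gained one without that library (1.08, adjusted p = 0.0393) and with the GC offset (0.64, adjusted p = 0.0472). *Nr1d2* was lower in *Wt* lung with the GC offset (-0.31, adjusted p = 0.00150) and with library totals (-0.26, adjusted p = 0.00669). DESeq2 lost the call of *Per3*, and the assumed BCV of 0.2 lost those of *Arntl*, *Per3*, *Cry1* and *Dbp*.

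Among KO mice 7 genes differed, 6 higher in lung and 1 lower, against 65.6% of all genes (33.9% higher, 31.7% lower), and of the 7 genes above the filter minimum in every library 4 were called. *Per1* was 2.81 ± 0.33 higher on the log2 scale (adjusted p = 1.89e-09), *Cry1* 1.18 ± 0.15 (adjusted p = 2.29e-08) and *Arntl* 0.95 lower (-0.95 ± 0.10, adjusted p = 2.73e-10). *Per2* (1.38 ± 0.33), *Cry2* (0.93 ± 0.28) and *Clock* (0.40 ± 0.12) were also higher in KO lung, and *Nr1d1* had 11 reads against 1. Without KO spleen replicate 2, which holds most KO spleen reads, the count was 3 (45% of all genes called) and *Per2* (adjusted p = 0.0850), *Cry2* (adjusted p = 0.236), *Clock* (adjusted p = 0.0907) and *Nr1d1* (adjusted p = 0.105) were not called. Without KO lung replicate 2 *Per2* (1.09, adjusted p = 0.0719) and *Cry2* (0.75, adjusted p = 0.120) lost their calls, and without KO lung replicate 1 *Nr1d1* did (adjusted p = 0.0802). DESeq2 lost the calls of *Per2*, *Cry2* and *Clock*, and the assumed BCV of 0.2 lost those of *Cry2* and *Clock*. *Arntl* was lower in lung than in spleen in both genotypes, in every library. These organ comparisons use the libraries of the genotype comparisons and are not separate evidence. Calls of *Per1*, *Per2* and *Nr1d1* in them again add no support.

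Counted by whether the libraries of both groups overlap, 9 of the 10 genes were separated in lung, 6 in spleen, 9 between the *Wt* organs and 10 between the KO organs. Over all genes the shares were 76%, 73.8%, 75.6% and 79.4%, so separation of 2 libraries from 2 was common. The counts of clock genes include *Per1*, *Per2* and *Nr1d1*, kept through the groups in which they were high, and so add no support. In lung *Nr1d1* was counted as separated, although KO lung replicate 2 (0.407 CPM) lay under the 0.776 CPM that *Wt* lung replicate 2 allows.

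Further genes of the clock were taken from lists by function. Of 10 transcription factors 6 were tested, and in KO lung 3 of them were higher and 1 lower, while in KO spleen 1 was higher and 4 lower. Over all genes 55.6% were called in lung (29.2% higher, 26.4% lower) and 57.1% in spleen (28.2% higher, 28.9% lower). The median log2 fold change of the 6 factors was 0.30 in lung and -0.40 in spleen, beside 0.02 and 0 over all genes. *Npas2*, the relative of *Clock*, and *Arntl2* and *Rorb* had 0 reads in all libraries, and *Hlf* was at most 1.29 CPM and not tested. *Bhlhe40*, an E-box repressor, was at 315 and 329 CPM in *Wt* lung and 480 and 463 in KO lung, but at 247 and 262 in *Wt* spleen and 164 and 179 in KO spleen. Its log2 fold changes were 0.55 ± 0.04 and -0.55 ± 0.05, and they differed by 1.10 ± 0.07 (adjusted p = 6.28e-17). *Nfil3*, a D-box repressor also needed for NK-cell development, rose by 0.57 ± 0.08 in KO lung and fell by 0.25 in KO spleen on the log2 scale (difference 0.82 ± 0.12, adjusted p = 1.74e-07). Its spleen groups overlapped, at 50.9 and 48.4 CPM in *Wt* and 48.5 and 40.1 in KO. *Tef*, a D-box activator of the *Dbp* family, was lower in both organs, from 26.3 and 23.8 to 14.7 and 17.1 CPM in lung and from 24.7 and 23.9 to 14.3 and 16.1 in spleen. *Ciart*, a repressor of the CLOCK and ARNTL dimer, had 11 and 1 reads in *Wt* lung and 30 and 22 in KO lung. These were 1.36 and 0.259 against 6.13 and 2.99 CPM (2.07 ± 0.48, adjusted p = 0.000377). Both *Wt* lung libraries lay below the minimum of the count filter (1.67 CPM), and both KO lung libraries lay above it. Its call, among the 3 higher factors in KO lung, therefore adds no support, and the medians of the 6 factors include it. In spleen its groups overlapped, with 1 and 16 reads in *Wt* and 5 and 55 in KO, and it was not called. *Rora*, which activates *Arntl*, was at 15.6 to 19.9 CPM in *Wt* lung, KO lung and *Wt* spleen and at 28.3 and 24.7 in KO spleen (0.38 ± 0.11, adjusted p = 0.00355). *Bhlhe41* was called in spleen alone (-0.81 ± 0.25, adjusted p = 0.00567), with a difference between organs of 0.85 ± 0.37 (adjusted p = 0.0457).

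Of 11 kinases, ubiquitin ligases and partners that act on PER and CRY proteins 9 were tested. In KO lung 3 were higher and 2 lower, and in KO spleen 4 were higher and 5 lower, with medians of 0.09 and -0.24. Thus 5 of 9 were called in lung, which equals the 55.6% of all genes, and 9 of 9 in spleen, beside 57.1%. *Csnk1d*, a casein kinase that phosphorylates PER, was at 79.8 and 71.6 CPM in *Wt* lung and 127 and 137 in KO lung, and at 117 and 107 in *Wt* spleen and 86.0 and 78.3 in KO spleen, a difference between organs of 1.26 ± 0.09 (adjusted p = 3.16e-14). *Csnk2a1* and *Gsk3b*, which encode further kinases of clock proteins, moved the other way, with log2 fold changes of -0.56 ± 0.04 and -0.54 ± 0.04 in lung and 0.17 ± 0.04 and 0.23 ± 0.04 in spleen. *Fbxw11*, a ligase subunit for PER, had 0.34 ± 0.09 in lung and -0.69 ± 0.09 in spleen.

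Of 6 genes known as clock outputs 4 were higher and 0 lower in KO lung, and 1 was higher and 3 lower in KO spleen, with medians of 0.72 and -0.24. In each organ 4 of 6 were called, beside 55.6% of all genes in lung and 57.1% in spleen. *Wee1*, a cell-cycle kinase with E-boxes in its promoter, was at 6.20 and 5.69 CPM in *Wt* lung, 11.4 and 10.7 in KO lung and 5.86 to 7.73 in spleen, and its effects differed between organs by 0.95 ± 0.28 (adjusted p = 0.00384). *Nampt*, of NAD synthesis, had 0.72 ± 0.11 in lung and -0.48 ± 0.10 in spleen. *Klf10* had 0.72 ± 0.06 and -0.39 ± 0.05, and *Klf9*, also a glucocorticoid target, 1.18 ± 0.14 and -0.99 ± 0.15.

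**Figure D4:**
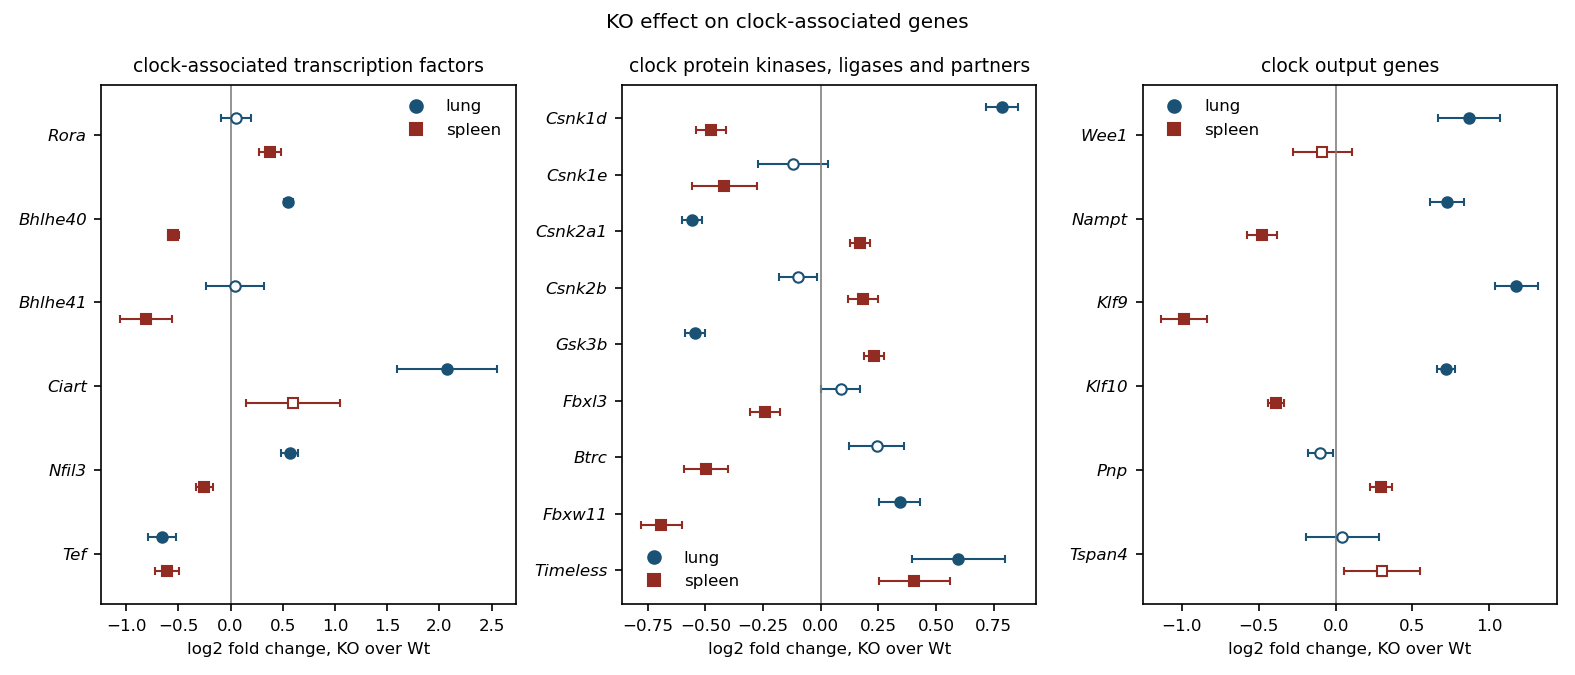
Log2 fold change of KO over *Wt* in lung (circles) and spleen (squares) for the tested members of 3 lists of clock-associated genes. Bars are standard errors of the fit and filled symbols passed the test at an FDR of 0.05. *Bhlhe40*, *Nfil3*, *Csnk1d*, *Fbxw11*, *Nampt*, *Klf9* and *Klf10* lie right of 0 in lung and left of 0 in spleen.

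Glucocorticoids and cAMP signalling are known to induce *Per1* directly, so genes of these pathways were read beside it. Of 7 glucocorticoid-induced genes 5 were higher and 1 lower in KO lung, and 6 were lower and 0 higher in KO spleen, with medians of 0.56 and -0.99. Over all genes 29.2% were higher and 26.4% lower in lung, and 28.2% higher and 28.9% lower in spleen. *Fkbp5*, which tempers the glucocorticoid receptor, was at 116 and 139 CPM in *Wt* lung, 189 and 178 in KO lung, 193 and 203 in *Wt* spleen and 63.2 and 66.6 in KO spleen. *Dusp1*, a phosphatase also induced by stress, was at 283 and 306 CPM in *Wt* lung, 593 and 595 in KO lung, 26.7 and 21.7 in *Wt* spleen and 4.24 and 5.47 in KO spleen. Of 8 CREB targets and immediate early genes 6 were higher and 0 lower in KO lung, and 1 was higher and 3 lower in KO spleen, with medians of 0.96 and -0.24. Called were thus 6 of 8 in lung, beside 55.6% of all genes, and 4 of 8 in spleen, beside 57.1%. *Sik1*, 1 of the 8, had 10 reads in *Wt* lung, 36 in KO lung and 0 in both spleen groups. It was kept through KO lung, where it was high, so its test adds no support. The counts and medians of the 8 genes include it. *Nr4a1*, an immediate early nuclear receptor, was at 43.8 and 55.1 CPM in *Wt* lung and 169 and 185 in KO lung, but at 13.5 and 14.1 in *Wt* spleen and 1.63 and 3.13 in KO spleen. *Klf9* and *Dusp1* each stand in 2 of these lists. Between organs all 8 CREB and immediate early genes were higher in lung in both genotypes, with medians of 1.79 in *Wt* and 3.90 in KO mice. Both the count and the medians include *Sik1*, whose calls add no support. Of the 7 glucocorticoid-induced genes 2 were higher and 3 lower in *Wt* lung than spleen, and 7 higher and 0 lower in KO lung. Over all genes 27.7% were higher and 29.3% lower in *Wt* lung, and 33.9% and 31.7% in KO lung. The part of either pathway in the levels of the clock genes was not tested.

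The genes whose pattern over the 8 libraries was closest to that of *Arntl*, by the root mean square difference of centred log2 CPM among 8510 other genes with a mean of at least 3, were *Zscan21* (0.0766), *Hmgn1* (0.0825) and *Prim1* (0.0875). Those closest to *Dbp* were *Nelfcd* (0.0549), *Slc35b4* (0.0615) and *Evl* (0.0740).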

How the data were processed

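RNA-seq measured the NK cells of lung and spleen in *Wt* and KO mice. Per the labels, including the submitters' processing notes, 50-base reads were aligned to mm10 with HISAT2 2.1.0 and counted with HTSeq 0.11.1, and the authors deposited raw read counts per gene symbol, unnormalized. The annotation and strand setting are not given in the sources used here. Reads overlapping no gene (52.7 to 55.0% of uniquely aligned reads) or several genes (0.686 to 0.768%) were left out of library sizes.

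Counts were fitted with edgeR 4.0.16 in R 4.3.3 (filterByExpr, TMM, 1 mean per group over all 8 libraries, quasi-likelihood test). P-values were adjusted by Benjamini-Hochberg over the 12595 genes tested and called at an FDR of 0.05. SEs come from the F statistic. All 10 clock genes were tested. The spread between libraries was small (common biological coefficient of variation 2.50%), and whether replicate libraries stem from different mice is not stated, so p-values measure only the spread between these libraries. With 2 against 2 an exact permutation test cannot give a p below 0.333. A count of 0 allows 3 reads, or 0.115 to 0.977 CPM, and such floors, like the intervals of read ratios, cover only counting error. Exon length, GC content and overlaps came from GENCODE (vM21), and promoters from RefSeq GRCm38.p6. Levels per length divide CPM by merged exon length. The fit was also run on simulated counts, and the outcome of that run is not used here. Alternatives were RLE or library-total scaling, other filters, an FDR of 0.001, DESeq2 1.42.0, a likelihood ratio test at an assumed variation (BCV) of 0.2, a fit of only the 4 libraries compared, a GC offset, a replicate block and leaving out each library.

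The members and lists were chosen with earlier results of these data known. All 10 members, *Ccl5*, marker lists, listed clock-associated, glucocorticoid and CREB genes, and the 3 nearest genes to *Arntl* and *Dbp* were named. Overlapping genes were named after their values were seen. For 1 gene of these lists, values are not reported here.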

Additional observations from a re-analysis of the deposited data

Results flagged for a closer look

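The effect of KO differed between lung and spleen for 8 of the 10 clock genes by edgeR's quasi-likelihood test of the difference, which is the reason they are listed here, beside 61.6% of all genes. Of the 7 genes above the filter minimum in every library 5 passed, and the calls of *Per1*, *Per2* and *Nr1d1* add no support. On the log2 scale, lung minus spleen, the difference was 2.54 for *Per1*, 2.17 for *Per2*, 1.16 for *Dbp* and 0.65 for *Cry1*. It was -0.50 for *Arntl*, -0.41 for *Clock* and -1.05 for *Per3*. With the GC offset it was -0.01 for *Clock* (adjusted p = 0.992) and 0.44 for *Dbp* (adjusted p = 0.225), and neither was called. The fitted difference of *Nr1d1* was 11.31, which depends on the prior count and gives no size, since this gene had 0 reads in lung *Wt* and 1 in spleen KO. Groups of 2 libraries were too small to look for single libraries far from the others.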

How the results depend on the processing

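Of 862 values of single clock genes under the alternatives, 742 kept direction and side of the threshold, 79 lost a call, 14 gained one and 27 changed sign, and the causes were not tested beyond what a setting itself removes. There were 2 libraries per group, and *Per1*, *Per2* and *Nr1d1* had 0 to 40 reads in each library. The count of clock genes called was 8 in lung, 5 in spleen, 8 for the difference between organs, 6 between *Wt* organs and 7 between KO organs. At an FDR of 0.001 it was 4 in lung, 2 in spleen and 3 for the difference (32.8%, 34.8% and 40.5% of all genes), and with at least 10 counts in every library, where 6 clock genes could be tested, 5, 2, 4 and, between KO organs, 3 (58.5%, 61.9%, 66.7% and 68%). DESeq2 gave 4, 2, 3 and, between KO organs, 4 (35.8%, 33.1%, 42.3% and 44%), and an assumed BCV of 0.2 gave 3, 2, 3 and, between *Wt* organs, 2 (12.4%, 9.08%, 16% and 16%). Leaving out 1 library of the groups compared gave no more clock genes called in lung, in spleen or between KO organs. The share of all genes called fell in each of these settings as well, except with at least 10 counts in every library, where it rose. Of 21 clock-associated genes tested, 13, 18, 15, 11 and 16 were called in the same 5 comparisons, beside 55.6%, 57.1%, 61.6%, 57% and 65.6% of all genes. With the assumed BCV they were 2, 1, 5, 0 and 4 (12.4%, 9.08%, 16%, 16% and 18.4%), and in spleen an FDR of 0.001 and DESeq2 gave 11 each (34.8% and 33.1%). The 13 called in lung include *Ciart*, whose call adds no support.

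Equal replicate numbers come from the labels, and nothing says that they mark pairs. The deviations of equally numbered libraries correlated at -0.0121 in lung, 0.169 in spleen, 0.0047 between *Wt* organs and -0.0766 between KO organs, over 5095 genes. With the replicate block the clock genes called were 8 in lung, 4 in spleen, 7 for the difference and 7 in each organ comparison. The shares of all genes called were then 55.7% in lung, 57.9% in spleen, 61.3% for the difference, 55.1% between *Wt* organs and 63.9% between KO organs. With the block and the GC offset *Cry2* was lower in KO lung (-0.71, adjusted p = 0.0296) and *Nr1d2* in KO spleen (-0.19, adjusted p = 0.0203).

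The values that changed sign belonged to results that were not called, apart from the difference of *Clock*, which was 0.078 with the GC offset and replicate block. In spleen *Arntl* was -0.064 with library totals, -0.0088 with at least 10 counts, -0.033 with the GC offset (-0.031 with the block as well) and -0.0091 to 0.055 with 1 library left out. *Clock* in spleen was -0.030 with library totals, -0.020 with the replicate block, -0.17 with the GC offset, -0.21 with both and -0.13 to 0.44 with 1 library left out, and *Per3* was -0.012 with library totals and -0.13 to 0.15. *Nr1d2* was -3.52e-05 with DESeq2 in lung (-0.027 to 0.048 with 1 library left out) and 0.0075 with no filter in spleen (-0.051 to 0.011 with 1 library left out), and its difference between organs was -0.019 to 0.059 with 1 library left out. Between KO organs it was 0.065 with the GC offset and 0.081 with the block as well, and *Dbp* there was -0.30 in both. With 1 library left out the difference of *Cry2* was -0.14 to 0.70, and *Per1* between *Wt* organs was -0.15 to 0.52. Scaling to library totals moved the median of all genes by 0.09 in lung, -0.07 in spleen, 0.16 for the difference and -0.11 between *Wt* organs, and the differences of *Arntl* (-0.34, adjusted p = 0.0509) and *Clock* (-0.25, adjusted p = 0.219) then missed the threshold.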

Other observations

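*Hlf* and *Usp2*, clock-associated genes too low to be tested, were looked at after their values were seen. *Hlf*, a D-box activator of the *Dbp* family, had 8 and 5 reads in *Wt* lung (0.993 and 1.29 CPM), 1 and 0 in KO lung, 0 and 0 in *Wt* spleen and 2 and 16 in KO spleen (0.652 and 0.612 CPM). Both KO spleen levels of *Hlf* lay under the 0.748 CPM that 0 reads allow in *Wt* spleen replicate 1. A relation of these few reads to those of *Nr1d1* was not tested. *Usp2*, a deubiquitinase of clock proteins, was at 0.744 and 0.517 CPM in *Wt* lung and at 1.63 in both KO lung libraries, from 6, 2, 8 and 12 reads. In spleen it was at 0.249 and 0.700 CPM in *Wt* and at 0.326 and 1.07 CPM in KO, with overlapping groups.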
